A study of Mus musculus with 16 samples.

Results

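Solute carriers are the membrane proteins, numbered in families from Slc1 upward, that move glucose, lactate, amino acids, ions, metals, nucleosides and vitamins across the plasma membrane and across the membranes of mitochondria, lysosomes and the Golgi apparatus. An activated CD4+ T cell takes up glucose and amino acids at a far higher rate than a resting one, exports lactate and imports iron, zinc and magnesium for growth. IL-6 signals through its receptor to the transcription factor STAT3, while TGFb signals through SMAD proteins, and the pair drives naive CD4+ T cells to become Th17 helper cells. The genes described here are those whose single gene symbol on the array began with Slc and a family number, each read from its brightest probe set, and kept where that probe set reached log2 8 on at least 2 of the 16 arrays. Of 347 such genes on the array, 245 were bright enough to be tested (log2 6 on at least 2 arrays) and 127 were kept.

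The study activated sorted naive mouse CD4+ T cells (CD44- CD62L+) with anti-CD3 and anti-CD28 for 3 days and measured RNA on Affymetrix arrays. There were 8 groups of 2 arrays: STAT3-deficient cells with IL-6 and TGFb, with IL-6, with TGFb, or in medium alone, and WT cells in the same 4 conditions. STAT3-deficient cells carried the genotype CD4 Cre; STAT3floxed and WT cells STAT3floxed, so the floxed allele is in both labels and the Cre in that of the deficient cells. A CD4-driven Cre acts from the thymus onward, before the cells were sorted. Per the labels, IL-6 was given at 10 and TGFb at 2.5 micrograms per ml. The labels do not say what a replicate is, and p-values here measure only the spread between these samples. The array holds whole-culture RNA, so fewer cells expressing a gene and less RNA per cell cannot be told apart.

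All values are log2 of the deposited intensity, and differences are STAT3-deficient minus WT, or cytokine minus no cytokine. The Stat3 probe set read 8.40 to 10.46 in STAT3-deficient cells and 10.22 to 12.18 in WT cells; whether it lies in the deleted part was not tested. All 9 T-cell markers reached log2 8, and none of the CD8, B-cell, dendritic or erythroid markers did; of the 3 NK markers only Klrd1 did (up to 12.85; summed level of the 3, 6.81 to 10.01 in STAT3-deficient and 6.43 to 12.86 in WT cells), of the myeloid ones only Mpeg1 (8.15) and of the platelet ones only Itga2b (8.37). Replicates of a group correlated at 0.939 to 0.981 over tested genes, except for STAT3-deficient cells with TGFb at 0.906. Replicate 1 of that group and the array closest to it, replicate 1 of STAT3-deficient cells with IL-6 and TGFb (0.957), are called the 2 arrays in doubt, and results are also given without them where that changes them. Being closest to an array of another group does not itself set them apart, since 14 of the 16 arrays were. Replicates 2 and 1 differed in every group: the Actb 5' minus 3' difference was -1.71 to -0.88 on replicate 2 and -0.50 to -0.11 on replicate 1, Xist read 6.64 to 7.60 against 11.91 to 13.21, and the Y-linked Eif2s3y 9.84 to 10.98 against 3.81 to 4.52. Xist high with Eif2s3y low is the pattern of female cells and the reverse that of male cells, so the 2 arrays of a group did not come from 1 animal. Fits with the replicate number as a block are given beside the results they change.

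The 127 genes cover 8 classes: 8 sugar carriers, 4 monocarboxylate carriers, 21 of amino acids and peptides, 10 of ions, 21 of metals, 28 of the mitochondrial carrier family Slc25 (most in the inner membrane), 20 of nucleotide sugars and nucleosides, and 15 others. Slc7a6os, an opposite-strand transcript, and Slc9a3r1, a scaffold protein, carry Slc names without being carriers. Of the 127 genes, 67 reached log2 8 on all 16 arrays and 60 on 2 to 15. At the edge of the rule, Slc35f5 (6.29 to 8.11), Slc39a9 (7.27 to 8.07), Slc6a17 (7.21 to 8.23) and Slc9a8 (7.09 to 8.38) reached it on exactly 2 arrays, while 13 genes reached it on 1 and were left out, among them Slc30a1 (5.83 to 8.11), Slc37a2 (5.25 to 8.39) and Slc41a2 (4.95 to 8.48). The highest probe sets were those of Slc25a5, the ADP/ATP carrier (mean 13.58), Slc25a3, the mitochondrial phosphate carrier (12.90), Slc2a3, the glucose transporter GLUT3 (12.66), Slc25a39, a mitochondrial glutathione carrier (12.42), and Slc44a2, a choline-transporter-like protein (12.23); a probe set's level also depends on its own probes. The SD over the 16 arrays ran from 0.14 for Slc25a51, the mitochondrial NAD carrier, to 2.18 for Slc17a6, a vesicular glutamate transporter, with Slc35d3 (1.64), Slc2a3 (1.44), the nucleoside transporter Slc29a1 (1.18), the zinc and manganese importer Slc39a8 (1.01) and the lactate exporter Slc16a3 (1.01) next.

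The first comparison asks what STAT3 contributes when its activating cytokine IL-6 is present, and averages the 2 conditions with IL-6. In STAT3-deficient cells 9 carrier genes were lower and 1 was higher than in WT cells. The lower ones included 4 of the 21 metal carriers: Slc41a1, a magnesium transporter of the plasma membrane; Slc39a14, an importer of zinc, iron and manganese; Slc30a4, which loads zinc into vesicles; and Slc48a1, which moves heme out of endolysosomes. Slc7a1, the main arginine importer of the cationic amino acid family, was the gene that rose. These 10 genes passed an adjusted p of 0.05 (limma, two-sided, Benjamini-Hochberg over 13007 genes) and make up 7.87% of the 127, against a background of 7.76% of all genes tested (1.66% higher, 6.1% lower) and 10.3% of genes bright enough to meet the same rule, a share near the background. The median change of the 127 genes was -0.12, against 0.00 over all genes tested and -0.12 over the equally bright genes.

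Slc41a1 had the lowest p of the 127. Its level was 7.88 and 8.70 in STAT3-deficient cells with IL-6 and TGFb and 8.42 and 8.50 in those with IL-6, against 9.93 and 10.10 and against 9.25 and 9.59 in WT cells under the same conditions. No STAT3-deficient array reached any WT array with IL-6. The means were 8.38 ± 0.35 and 9.72 ± 0.38 (SD, n = 4 each), a log2 change of -1.34 (SE 0.23, adjusted p = 0.00645 with limma). The call held in all 19 alternatives, with changes of -1.55 to -0.90 and adjusted p of 0.00105 to 0.0302 in limma. Its other probe set changed by -0.46 and did not reach log2 6 on any array.

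Slc7a1 read 11.29 and 11.63 in STAT3-deficient cells with IL-6 and TGFb and 11.66 and 11.84 in those with IL-6, against 10.67 and 10.72 and against 11.14 and 10.81 in WT cells. The groups did not overlap, with means of 11.61 and 10.83 and a change of 0.77 (SE 0.16, limma adjusted p = 0.0177). Its other probe sets moved the same way, by 0.48 and 0.25.

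The sequences before the start sites of these 2 genes are shown because they carry the calls of opposite direction, and STAT proteins are known to bind the palindrome TTCNNNGAA. They are the 250 bases before a RefSeq start site (GRCm38.p6), 5' to 3' on the gene's strand, with any TTCNNNGAA in capitals; Slc41a1 lies on the plus strand at chr1:131827762-131828011 and Slc7a1 on the minus strand at chr5:148392816-148393065.
Slc41a1: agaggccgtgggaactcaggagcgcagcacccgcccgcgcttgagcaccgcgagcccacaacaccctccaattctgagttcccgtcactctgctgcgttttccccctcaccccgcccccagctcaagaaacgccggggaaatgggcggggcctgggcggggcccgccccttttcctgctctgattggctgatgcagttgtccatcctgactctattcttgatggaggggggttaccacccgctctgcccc
Slc7a1: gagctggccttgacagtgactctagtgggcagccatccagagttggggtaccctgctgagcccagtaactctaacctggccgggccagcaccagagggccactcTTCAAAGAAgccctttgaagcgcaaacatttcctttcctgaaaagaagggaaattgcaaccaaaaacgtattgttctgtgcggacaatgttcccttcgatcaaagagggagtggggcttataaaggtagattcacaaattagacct
The Slc41a1 window holds no match, and the Slc7a1 window holds 1, with its first base 146 bases before the start. Slc7a1 has a second RefSeq start further upstream, whose 250 bases hold none; the start shown was chosen for its match. Over 300-base windows (250 before to 50 after the start), the motif was found in 6 of 139 promoters of the 100 carrier genes that the RefSeq table held (4.32%), against 8.30% of all 32851 promoters. Among the genes called in the IL-6 comparison, 7 of 10 were in the table with 10 promoters, and only that of Slc7a1 held it. Of 4 further motifs searched on both strands, the E-box CACGTG, which MYC and USF proteins bind, was in 14.4% of carrier promoters against 7.15% of all, and the hypoxia-type core ACGTG, which every CACGTG contains, in 30.9% against 19.6%. The amino acid response element TGATGNAAT was in 0 of 139 against 0.965%, and the metal response core TGCNCNC in 62.6% against 51.0%. A match in such a window is a description of its letters, not a binding site. The carrier genes were kept for bright probe sets while all promoters were not, and shares over equally bright genes were not computed. Whether these differences are particular to carriers was not tested.

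An importer and a vesicle loader of zinc were both lower in STAT3-deficient cells with IL-6. The other Slc30 and Slc39 genes were not called without the replicate block. Slc39a14 read 8.20 and 8.26 in STAT3-deficient cells with IL-6 and TGFb and 7.73 and 8.12 in those with IL-6, against 9.01 and 9.30 and against 8.96 and 9.55 in WT cells. The groups lay apart, with means of 8.08 and 9.21 (change -1.13, SE 0.24, limma adjusted p = 0.0189). With the mean of all its probe sets the change was -0.23 and was not called. Slc30a4 averaged 9.03 in STAT3-deficient and 9.90 in WT cells with IL-6, again without overlap (-0.87, SE 0.18, limma adjusted p = 0.0151), and Slc48a1 changed by -0.68 (limma adjusted p = 0.0407). Slc39a8, an importer in the same family as Slc39a14, showed 10.11, 8.77, 7.85 and 8.04 in STAT3-deficient cells, against 10.54, 10.48, 10.04 and 9.39 in WT cells. At -1.42 (SE 0.47, limma adjusted p = 0.0888), its difference was larger than that of Slc39a14 but did not pass; its 4 STAT3-deficient arrays spanned 7.85 to 10.11. The iron importer Slc11a2, also on the panel of T-cell carriers, changed by -0.08 and was not called.

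Outside the metals, Slc15a2, the proton-coupled oligopeptide transporter PEPT2, read 7.44, 7.08, 7.41 and 6.29 in STAT3-deficient cells with IL-6, against 8.33, 8.47, 8.13 and 8.46 in WT cells. The groups did not overlap (-1.30, SE 0.30, limma adjusted p = 0.0247). Slc25a30, a mitochondrial carrier first described in kidney, had the largest called change, with means of 7.44 in STAT3-deficient and 9.04 in WT cells (-1.60, SE 0.43, limma adjusted p = 0.0447). Slc4a11, of the bicarbonate transporter family, averaged 7.61 and 8.69 (-1.08, SE 0.24, limma adjusted p = 0.0238), and was the only called gene whose groups overlapped, since its STAT3-deficient array at 8.26 lay above WT arrays at 8.20 and 8.08. Slc35f5, whose substrate is not established, changed by -0.96 (limma adjusted p = 0.0461), and Slc44a2 by -0.50 (limma adjusted p = 0.0453). Slc15a2 and Slc35f5 reached log2 8 only on WT arrays with IL-6, so they are among the 127 genes only through the group where they were high, and their calls say nothing of the set as a whole. Of the 121 genes that did not depend in this way on either side of the comparison, 8 were called. For Slc15a2, Slc25a30 and Slc39a14 further probe sets of the gene moved the other way by 0.11 to 0.29, and with the mean of all probe sets in place of the brightest their changes were -0.27, -0.75 and -0.23, none of them called.

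**Figure D1:**
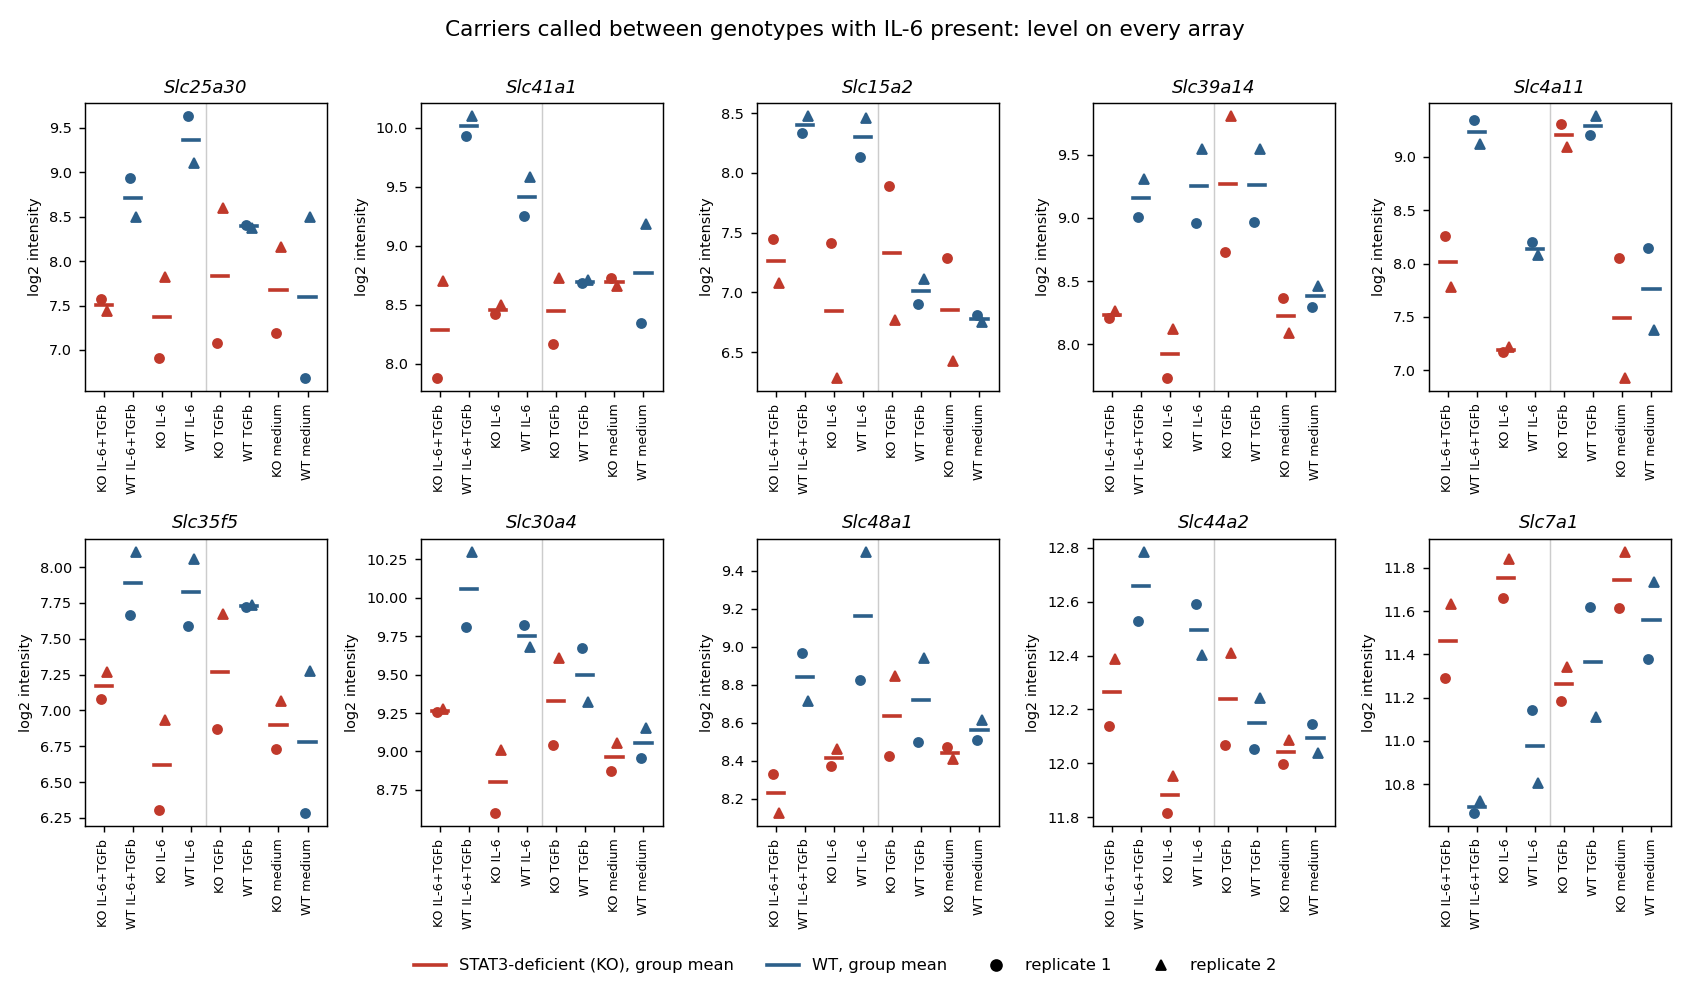
Level (log2 intensity) on each array of the 10 carrier genes called between STAT3-deficient and WT cells over the conditions with IL-6. STAT3-deficient (KO) arrays stand left of WT arrays in each of the 4 conditions, with circles for replicate 1, triangles for replicate 2 and bars for group means. Slc7a1 is the gene higher in STAT3-deficient cells with IL-6 (11.61 against 10.83), and Slc41a1 is lower (8.38 against 9.72).

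Without regard to the test, the 4 STAT3-deficient arrays lay wholly above the 4 WT arrays for 6 carrier genes (6.15% of all genes did) and wholly below for 19 (10.2% of all genes). Beside Slc7a1, those above included the reduced folate carrier Slc19a1 (0.62, limma adjusted p = 0.244), the monoamine transporter Slc29a4 (0.49, 0.0642), Slc6a17, a neutral amino acid transporter of synaptic vesicles (0.46, 0.162), and the phosphate importer Slc20a2 (0.43, 0.408). None of those 4 was called. With the replicate number as a block, 17 carrier genes were called in place of 10, 2 higher and 15 lower, against a background of 17.6% (4.78% higher, 12.9% lower); all 10 were among them, and Slc29a4, the glucose 6-phosphate transporter Slc37a4 (-1.17), the mitochondrial ATP-Mg carrier Slc25a24 (-1.10), the UDP-galactose transporter Slc35a2 (-0.98), the zinc carriers Slc39a1 (-0.80) and Slc30a7 (-0.69) and the citrate carrier Slc25a1 (-0.71) joined them. A further quantile normalization gave 7 calls, 3 higher and 4 lower in STAT3-deficient cells, where the deposited scale gave 1 higher and 9 lower; 5 genes were called by both. Leaving out the 2 arrays in doubt gave 6 calls, 5 of them among the 10. Leaving out any single array of the 8 gave 1 to 7: 1 without WT IL-6 with TGFb replicate 2, 2 without WT IL-6 with TGFb replicate 1 or without either STAT3-deficient array with IL-6 and TGFb, 3 without STAT3-deficient IL-6 replicate 1, and 6 without replicate 2 of STAT3-deficient or of WT cells with IL-6. In those 8 fits the call of Slc41a1 held in 8, those of Slc30a4 and Slc7a1 in 5, those of Slc15a2 and Slc39a14 in 2, those of Slc35f5, Slc48a1 and Slc4a11 in 1, and those of Slc25a30 and Slc44a2 in 0.

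Apart from Slc7a1, given above, the nutrient carriers usually followed in activated T cells did not pass the test in this comparison. No sugar carrier of 8 and no monocarboxylate carrier of 4 was called. The glucose transporter Slc2a1 (GLUT1) read 11.79, 12.05, 11.45 and 11.65 in STAT3-deficient cells with IL-6, against 12.49, 12.37, 12.63 and 12.72 in WT cells. These arrays did not overlap, but the change of -0.82 had an adjusted p of 0.371 in limma. That fit shares 1 estimate of the spread over all 8 groups. The SD of Slc2a1 (n = 2) was 0.19 and 0.15 in STAT3-deficient and 0.09 and 0.06 in WT groups with IL-6. It was 1.90 with TGFb and 1.14 in medium in STAT3-deficient cells, and 0.08 and 1.41 in WT cells. The adjusted p therefore does not rest only on the spread of the arrays compared. Slc2a3 differed by the same amount (-0.82, limma adjusted p = 0.634), the lactate exporter Slc16a3 by -0.64 (0.594) and the lactate and pyruvate carrier Slc16a1 by 0.38 (0.309). For the amino acid carriers, the leucine transporter Slc7a5 (LAT1) differed by 0.64 (0.273), its heavy chain Slc3a2 by 0.05 (0.928), the glutamine importers Slc1a5 by 0.31 (0.487), Slc38a1 by 0.26 (0.322) and Slc38a2 by -0.13 (0.714), the nucleobase carrier Slc43a3 by 0.53 (0.290) and the taurine carrier Slc6a6 by -0.07. Among ion and nucleoside carriers, the sodium, potassium and chloride carrier Slc12a2 differed by -0.12, the phosphate importer Slc20a1 by 0.78 (0.221), Slc29a1 by 1.03 (0.449) and Slc25a5 by 0.15.

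Condition by condition, fewer carrier genes passed with 2 arrays a side. With IL-6 and TGFb, Slc41a1 alone was called: it averaged 8.29 ± 0.58 without STAT3 and 10.01 ± 0.12 in WT cells (SD, n = 2 each), a change of -1.72 (SE 0.32, limma adjusted p = 0.0253), against a background of 1.19%. The call was lost without STAT3-deficient replicate 1 (-1.31), WT replicate 1 (-1.81) or WT replicate 2 (-1.64), with the mean of the probe sets (-1.09), and when the arrays compared were fitted alone. With IL-6 alone 0 carrier genes were called by limma (background 3.29%), and 24 had an unadjusted p under 0.05. Every background is the share called at the adjusted p. Shares of all genes at the unadjusted p are not given. The fit with the replicate block called 10, 1 higher and 9 lower (background 11.5%, of which 2.38% higher and 9.08% lower). Those were Slc25a30 (-2.0), Slc37a4 (-1.65), Slc15a2 (-1.45), Slc39a14 (-1.33), Slc35f5 (-1.21), Slc30a7 (-1.06), Slc41a1 (-0.96), Slc30a4 (-0.95), Slc44a2 (-0.61) and, higher, Slc7a1 (0.78).

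Without added IL-6 no carrier gene differed between STAT3-deficient and WT cells by the test. The limma counts were 0 with TGFb, 0 in medium and 0 over both conditions, with 3, 0 and 1 at an unadjusted p under 0.05 and a background of 0% in each; the replicate block also gave 0 carrier genes, against a background of 0%, 0% and 0.0154%. In medium the 127 changes lay between -0.54 and 0.66, and with TGFb between -1.68 for Slc2a3 and 1.43 for the aromatic amino acid carrier Slc16a10. Slc17a5 read 9.15 and 7.74 in STAT3-deficient and 7.26 and 7.62 in WT cells with TGFb, without overlap, a difference of 1.01 that did not pass. Slc41a1 read 8.16 and 8.72 in STAT3-deficient cells with TGFb and 8.72 and 8.66 in medium, against 8.69 and 8.71 and against 8.35 and 9.18 in WT cells, and the genotypes overlapped in both conditions.

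The next comparison asks which carriers IL-6 itself moved in each genotype. In WT cells Slc15a2 was the single gene called, at 8.35 ± 0.16 with IL-6 and 6.89 ± 0.16 without it (SD, n = 4 each), a rise of 1.45 (SE 0.30, limma adjusted p = 0.0344; background 1.63%). Since only WT arrays with IL-6 brought it to log2 8, it was kept through the group where it was high; of the 122 genes without that dependence 0 were called. That call did not hold when any 1 of the 8 WT arrays was left out (adjusted p 0.0627 to 0.130), nor with the mean of its probe sets (0.37). The 4 WT arrays with IL-6 lay above the 4 without it for 5 carrier genes (3.71% of all genes): Slc15a2, Slc25a24 (1.04), Slc41a1 (0.98, limma adjusted p = 0.0599), Slc30a4 (0.63) and Slc44a2 (0.46). They lay below for 4 (3.10% of all genes): Slc7a5 (-1.07, limma adjusted p = 0.214), the mitochondrial glycine carrier Slc25a38 (-0.53), the mitochondrial iron carrier Slc25a28 (-0.35) and Slc6a17 (-0.14). With the replicate block 5 genes were called in WT cells (background 3.37%), Slc15a2, Slc25a24, Slc41a1, and, falling, the glycine transporter Slc6a9 (-0.75) and the myo-inositol importer Slc5a3 (-0.57). In STAT3-deficient cells 0 carrier genes passed (3 at an unadjusted p under 0.05; background 0%), and those 3 differed by -0.79 for the potassium and chloride carrier Slc12a7, -0.74 for Slc4a11 and -0.67 for Slc39a14.

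Whether IL-6 acted differently in the 2 genotypes was tested by an interaction. No carrier gene was called (0 of 127, against a background of 0.354% called at the adjusted p). At an unadjusted p under 0.05 there were 17. Of those 17, 13 were more negative in STAT3-deficient cells and 4 more positive. They include Slc15a2, which was kept only through WT arrays with IL-6. The count and split over all genes at that p are not given, so neither is a result about the carriers. Slc41a1 changed with IL-6 by -0.19 in STAT3-deficient and 0.98 in WT cells, a difference of -1.18 (SE 0.32, limma adjusted p = 0.158), and was the 1 carrier gene called with the replicate block (adjusted p = 0.0393, background 1.86%). Larger differences that did not pass were those of Slc15a2 (-1.49, limma adjusted p = 0.173), Slc25a30 (-1.36, 0.396) and Slc38a6, of the family of neutral amino acid transporters (-1.34, 0.406). On the positive side Slc7a5 had 1.06 (0.433). Slc7a5 read 10.00, 10.01, 9.70 and 10.80 in STAT3-deficient cells with IL-6 and 9.05, 10.88, 10.15 and 10.48 without it; in WT cells it read 9.18, 9.36, 9.36 and 10.05 with IL-6 and 10.76, 10.51, 10.36 and 10.59 without it.

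The effect of TGFb was tested over both genotypes, with and without IL-6 (8 arrays with TGFb, 8 without). Slc17a6, which fills synaptic vesicles with glutamate in neurons, fell most. Slc44a1, a choline transporter, Slc4a11, Slc39a8, Slc43a2, a transporter of branched-chain and other neutral amino acids, Slc22a5, the carnitine importer, Slc17a5, the lysosomal sialic acid exporter, Slc17a9, a vesicular nucleotide carrier, and the mitochondrial carrier Slc25a45 rose, and Slc25a13, a mitochondrial aspartate and glutamate carrier, fell. These 10 calls, 8 higher and 2 lower with TGFb, are 7.87% of the 127 genes, against a background of 9.25% of all genes tested (5.46% higher, 3.79% lower) and 12.4% of genes equally bright. The class of vitamin, lipid, organic ion and other carriers held 5 of the 10. Slc17a6 and Slc17a5 were among the 127 genes only through the side where they were high, and 8 of the 111 genes without that dependence were called.

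Slc17a6 read 4.91, 4.81, 4.70 and 4.52 in STAT3-deficient cells with TGFb and 8.26, 8.83, 7.18 and 8.69 in those without it. In WT cells it read 4.91, 5.13, 4.0 and 4.59 with TGFb and 9.14, 10.29, 7.50 and 9.46 without it. The groups did not overlap. The arrays with TGFb were all below log2 6, so the gene entered the test, at log2 6, and the 127 genes, at log2 8, only through the arrays without TGFb, where it was high. The means were 4.69 ± 0.34 and 8.67 ± 1.02 (SD, n = 8 each), a change of -3.97 (SE 0.31, limma adjusted p = 3.14e-05). This was the largest fall in log2 level of the 13007 genes. A second probe set changed by -1.77, and with the mean of all probe sets of a gene Slc17a6 ranked 5 from the lowest (-2.87). Low intensities include background, so the size of the fall is limited from below by the array.
The 250 bases before the first of its 2 RefSeq start sites, at chr7:51621580-51621829 on the plus strand (GRCm38.p6), are shown because the gene had the largest fall of all tested genes in the TGFb comparison.
Slc17a6: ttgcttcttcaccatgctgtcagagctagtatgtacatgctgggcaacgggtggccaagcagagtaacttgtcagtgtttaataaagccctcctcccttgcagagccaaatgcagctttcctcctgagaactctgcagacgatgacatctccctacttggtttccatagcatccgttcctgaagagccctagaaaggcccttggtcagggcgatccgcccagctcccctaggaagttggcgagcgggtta
No TTCNNNGAA lies in it or before the other start, and none was found in the 12 promoters of the 8 genes called with TGFb that the table held.

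Of the genes that rose, Slc44a1 read 10.00, 9.54, 10.25 and 9.27 in STAT3-deficient cells with TGFb and 8.01, 7.69, 8.89 and 7.89 without it. WT cells read 9.43, 9.78, 9.21 and 9.72 with TGFb and 8.19, 8.41, 9.05 and 7.91 without it. The groups did not overlap (1.39, SE 0.22, limma adjusted p = 0.00379). Slc43a2 (1.12, SE 0.16, limma adjusted p = 0.00187) and Slc17a9 (0.41, 0.0309) were also without overlap, so that 3 genes lay wholly above (1.05% of all genes did) and Slc17a6 wholly below (0.361% of all genes). Slc4a11 averaged 8.94 with TGFb and 7.65 without it (1.29, SE 0.17, limma adjusted p = 0.00139). The calls of Slc17a6, Slc43a2, Slc44a1, Slc4a11 and Slc22a5 (0.56, limma adjusted p = 0.013) held in all 26 alternatives. Those of Slc17a5 (0.78, 0.0199) held in 22, Slc17a9 in 12, Slc39a8 (1.18, 0.0486) in 11, Slc25a13 (-0.74, 0.0454) in 9 and Slc25a45 (0.49, 0.046) in 7. With the mean of its probe sets, all the others dim, Slc44a1 changed by 0.38. At least 1 of those other probe sets moved the opposite way, without reaching log2 6 on 2 arrays. With the replicate block 18 genes were called, 13 higher and 5 lower (background 16.3%, of which 9.12% higher and 7.22% lower). Without the 2 arrays in doubt 8 were called, 7 of them among the 10. Leaving out 1 array gave 5 to 14 calls, the 5 without STAT3-deficient IL-6 with TGFb replicate 1, WT IL-6 with TGFb replicate 1, STAT3-deficient IL-6 replicate 2 or WT TGFb replicate 2, and 6 without STAT3-deficient medium replicate 2.

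**Figure D2:**
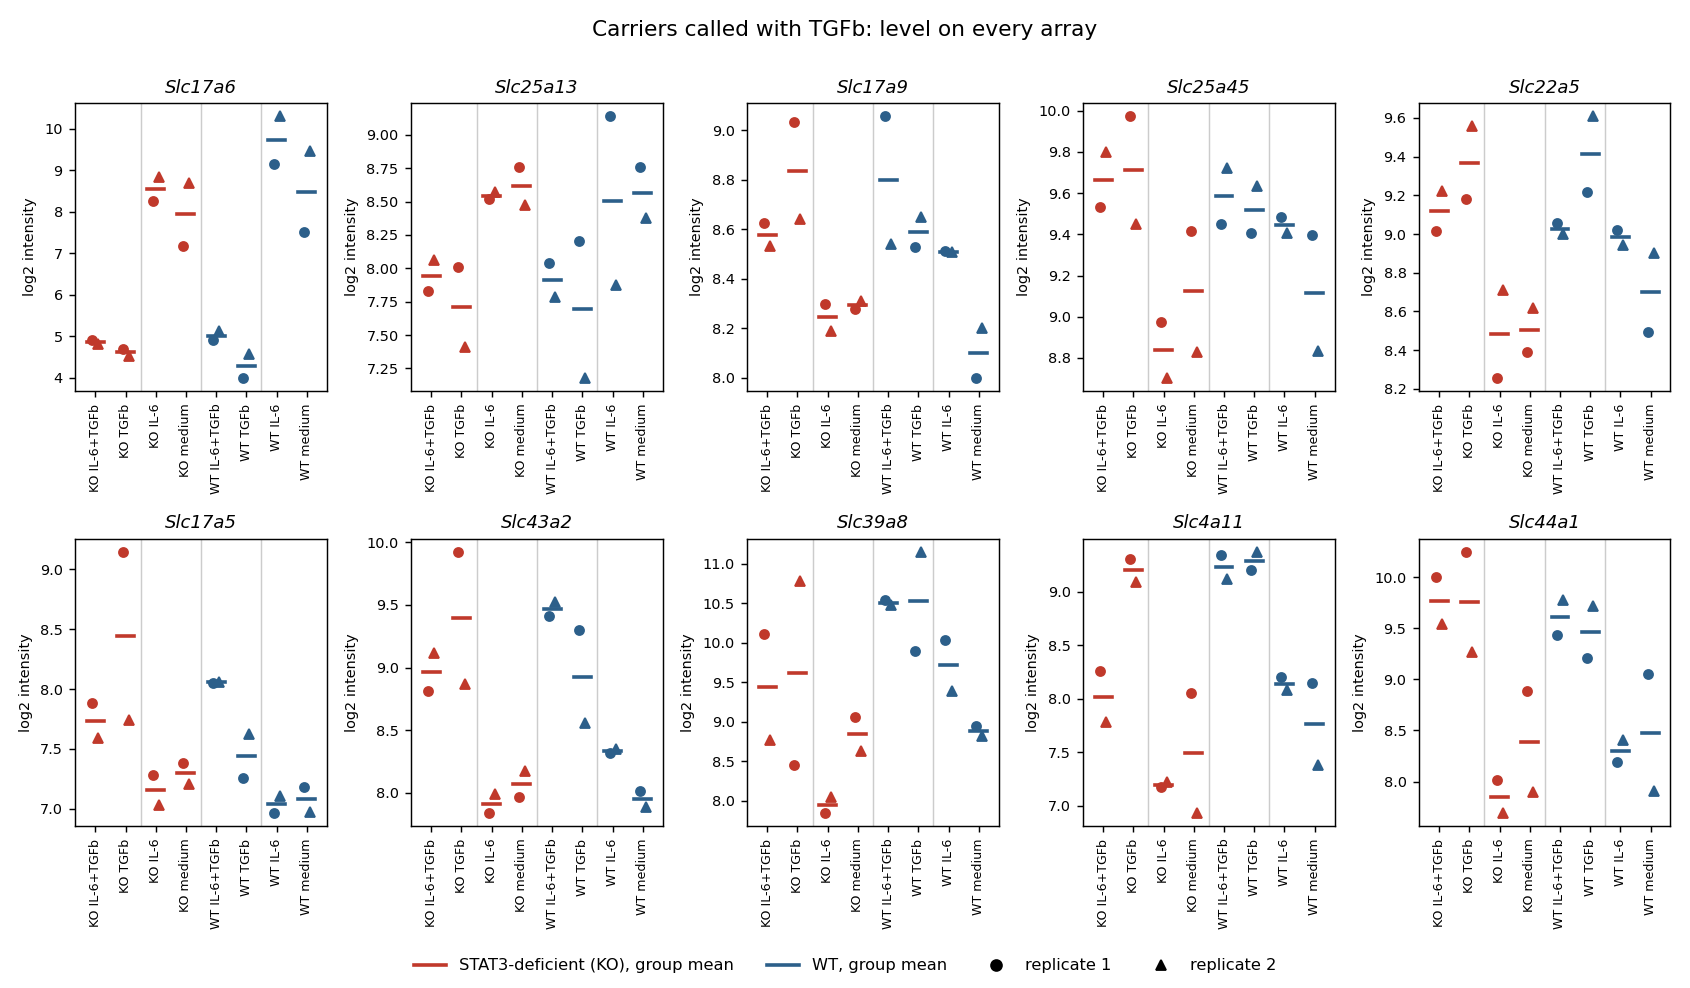
Level (log2 intensity) on each array of the 10 carrier genes called between conditions with and without TGFb. STAT3-deficient (KO) arrays stand left of WT arrays and, within a genotype, TGFb left of no TGFb, with circles for replicate 1, triangles for replicate 2 and bars for group means. Slc17a6 lies at 4.0 to 5.13 on the 8 arrays with TGFb and at 7.18 to 10.29 on the 8 without it.

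**Figure D3:**
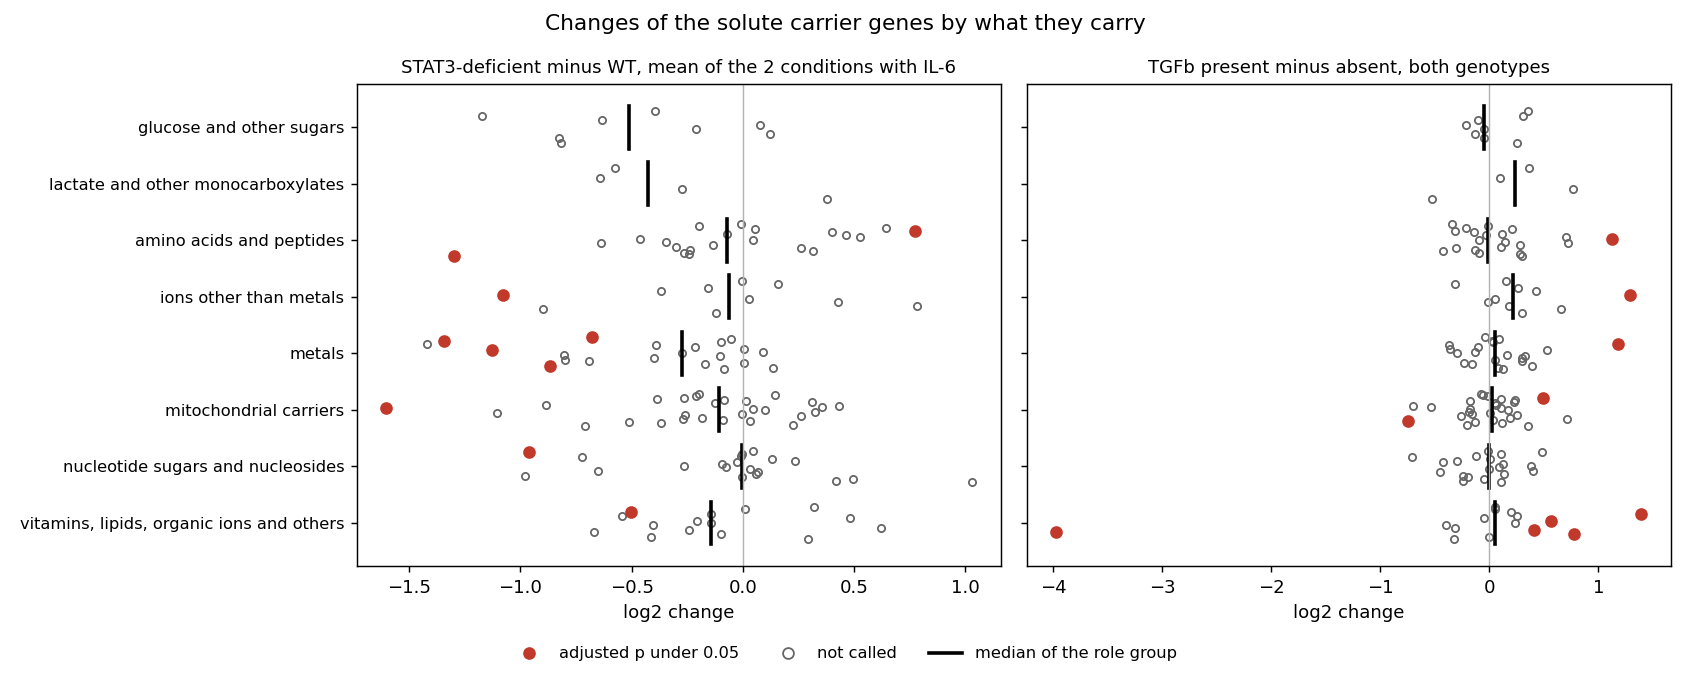
Log2 change of each of the 127 carrier genes by class, for STAT3-deficient minus WT over the conditions with IL-6 and for TGFb present minus absent. Red points passed an adjusted p of 0.05 and the black line is the median of a class. The 21 metal carriers hold 4 of the 10 genotype calls, where 7.76% of all genes tested and 10.3% of equally bright genes were called. Slc17a6 stands at -3.97 with TGFb.

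With both cytokines against medium, the Th17 condition, 3 carrier genes were called in WT cells (background 3%; 24 at an unadjusted p under 0.05). Slc17a6 averaged 5.02 ± 0.16 and 8.48 ± 1.38 (SD, n = 2 each; -3.46, limma adjusted p = 0.013), Slc43a2 changed by 1.52 (0.0296) and Slc4a11 by 1.47 (0.0466). The Slc17a6 call was lost without either WT array with both cytokines (-3.35 and -3.57) or without WT medium replicate 2 (-2.48), and the other 2 calls were lost without any 1 of the 4 WT arrays compared. Fitting only the arrays compared also lost the calls of Slc17a6 and Slc4a11. That of Slc4a11 was further lost with quantile normalization, without the filter on low values, with the mean of its probe sets and without the 2 arrays in doubt. In STAT3-deficient cells limma called 0 (4 at an unadjusted p under 0.05; background 0.138%), where Slc17a6 differed by -3.08 (adjusted p = 0.114), Slc44a1 by 1.38, Slc43a2 by 0.89 and Slc22a5 by 0.61. With the replicate block 9 genes were called in WT cells, 6 higher and 3 lower (background 6.4%, of which 4.31% higher and 2.09% lower), and Slc17a6 in STAT3-deficient cells (adjusted p = 0.0237, background 0.292%). Both of these comparisons use medium arrays that also enter the TGFb comparison.

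Some carriers of glucose and lactate differed between the replicate numbers: 3 of the 8 sugar carriers and 1 of the 4 monocarboxylate carriers passed the test, against a background of 19.8% of all genes tested. Slc2a3 read 12.91, 13.53, 13.81 and 13.90 on replicate 2 of STAT3-deficient cells (IL-6 with TGFb, IL-6, TGFb, medium), against 11.97, 11.82, 9.60 and 10.30 on replicate 1. In WT cells it read 13.21, 14.23, 13.69 and 14.08 on replicate 2, against 12.83, 13.24, 13.09 and 10.40 on replicate 1. Replicate 2 was higher in 8 of 8 groups, by 2.01 on average (13.67 ± 0.44 and 11.66 ± 1.40, SD, n = 8 each; limma adjusted p = 0.0149). Slc16a3 was higher in 8 of 8 (1.51, 0.0067), and the sugar-nucleotide family gene Slc35d3 in 7 of 8 (2.01, 0.0221). Slc29a1, the equilibrative nucleoside transporter ENT1, averaged 8.81 on replicate 2 and 10.55 on replicate 1 and was higher in 0 of 8 (-1.74, 0.00543). Slc2a1 was higher in 7 of 8 groups without passing (0.85, 0.0762).

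In all, 29 of the 127 genes differed between the replicate numbers, 22 higher and 7 lower on replicate 2 (22.8%, against a background of 19.8% of all genes, 12.7% higher and 7.12% lower, and 23.6% of genes equally bright). The sugar carriers among them were Slc2a3, Slc37a4 and Slc50a1, a SWEET-family carrier, and 7 of the 20 nucleotide sugar and nucleoside carriers were included. How many of the 29, beside Slc35d3, were kept only through the side where they were high was not counted. After a further quantile normalization 39 genes were called, 20 higher and 19 lower, 27 of them shared with the 29, so the split by direction depends on the scaling. Without the 2 arrays in doubt 19 were called, 15 of them shared. Among 5 terms of the sum of squares, the replicate number was the largest for 57 of the 127 genes, TGFb for 38, genotype for 19, IL-6 for 7 and genotype by IL-6 for 6. These leave out the other group terms and the residual, and the replicate number was larger than both of those for 35 of the 57. The median share of the replicate number was 14.1% for the sugar carriers, 8.61% for the monocarboxylate carriers and 19.3% for the 127 carrier genes and 11.9% for all genes tested, against 5.75% and 7.01% for genotype and 9.21% and 8.29% for TGFb. Single genes differed widely: the replicate number took 51.8% of the sum of squares of Slc2a3, 59.5% of Slc16a3, 57.6% of Slc29a1 and 61.3% of Slc5a3, TGFb took 88.7% of Slc17a6 and 75.5% of Slc43a2, and genotype took 40.1% of Slc41a1 with a further 24.6% for genotype by IL-6. The Actb 5' minus 3' difference, Xist and Eif2s3y moved with the same number, as given above; sex, RNA quality and replicate number cannot be told apart.

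**Figure D4:**
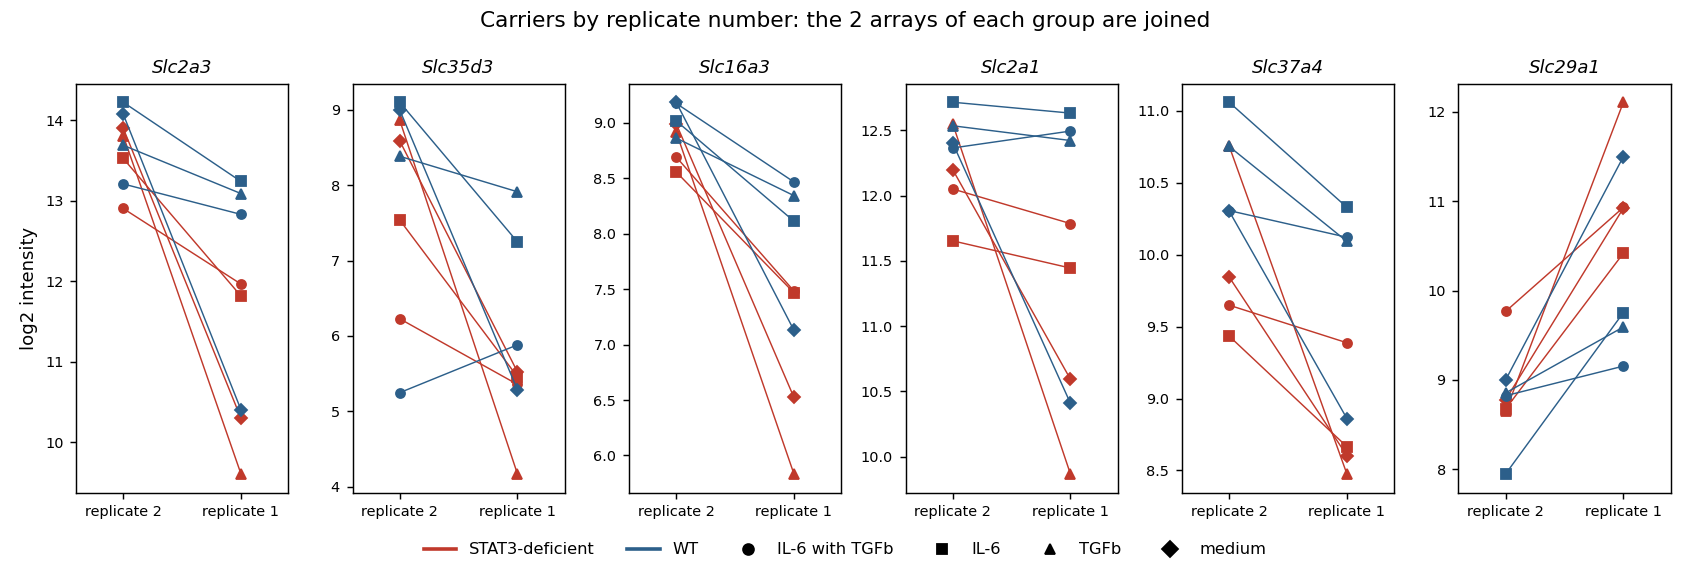
Level (log2 intensity) of 6 carrier genes on replicate 2 (left) and replicate 1 (right), joined within each of the 8 groups. Slc2a3 and Slc16a3 are higher on replicate 2 in 8 of 8 groups, Slc2a1 in 7 of 8, and Slc29a1 in 0 of 8.

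**Figure D5:**
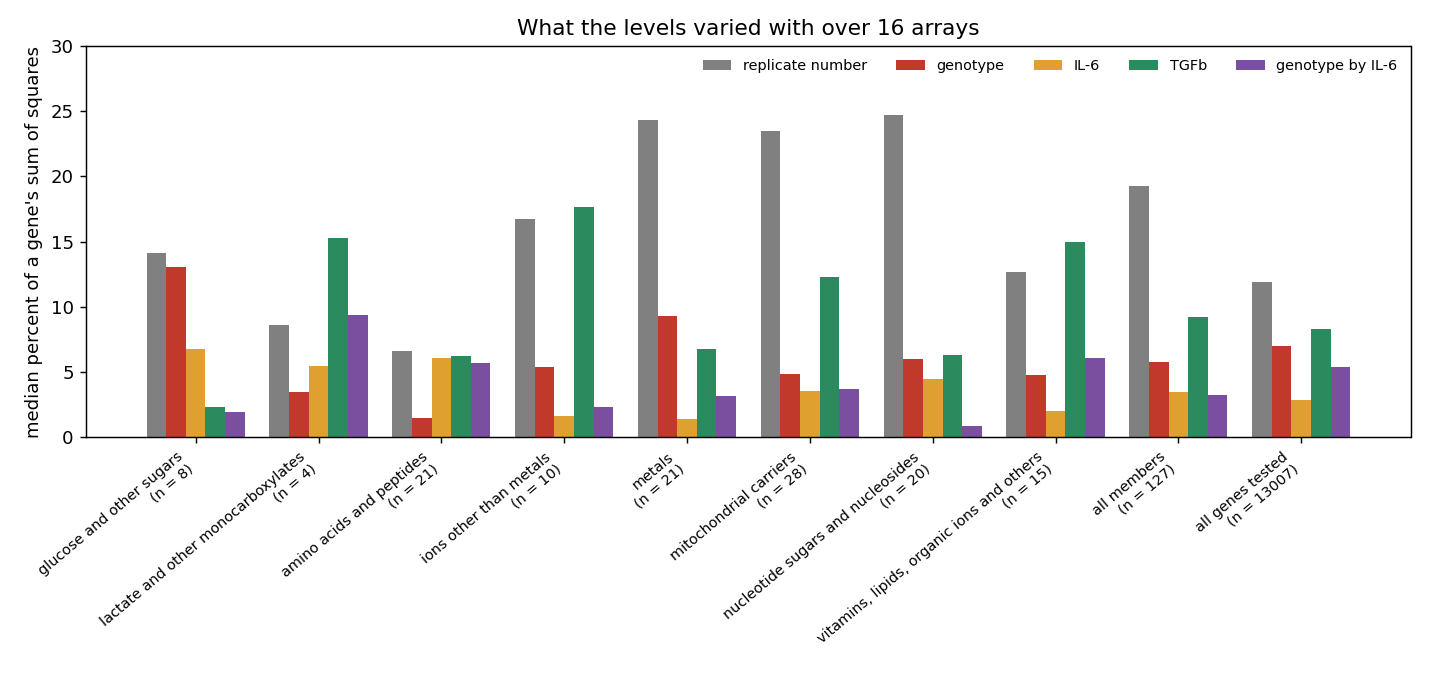
Median percent of a gene's sum of squares taken by replicate number, genotype, IL-6, TGFb and genotype by IL-6, for the 8 classes of carrier, all 127 carrier genes and all genes tested. The replicate number takes a median of 19.3% for the carrier genes and 11.9% for all genes.

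By Pearson r over the 8 group means, a description over points that share the arrays, Slc2a1 was most like the nucleotide sugar carrier Slc35a5 (0.959), Slc2a3 (0.941) and the amino acid carrier Slc7a6 (0.934). Slc7a5 was most like Slc6a9 (0.941), Slc25a5 (0.868) and the glucose transporter family gene Slc2a6 (0.847), and Slc17a6 most like Slc25a13 (0.948), the zinc carrier Slc30a6 (0.879) and the zinc carrier Slc39a7 (0.841).

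Transport genes outside the Slc families also moved. Of 34 listed channels, pumps, ABC transporters and accessory proteins, 31 were tested, and in STAT3-deficient cells with IL-6 1 was higher and 4 lower than in WT cells, against 7.76% of all genes called (with the replicate block 2 higher and 11 lower, against 17.6%). Emb, embigin, the partner of monocarboxylate carriers, fell by 1.95 (limma adjusted p = 0.00259), the aquaglyceroporin Aqp9 by 1.99 (0.00403), and the plasma membrane calcium pumps Atp2b4 by 0.88 (0.0233) and Atp2b1 by 0.71 (0.0493), while Mcu, the mitochondrial calcium uniporter, rose by 0.63 (0.044). With TGFb 3 were higher and 3 lower, against 9.25% of all genes (with the block 5 and 4, against 16.3%). The aquaglyceroporin Aqp3 rose by 3.54 (limma adjusted p = 0.00013), the sodium pump subunit Atp1b1 by 1.59 (0.000906) and the cholesterol exporter Abcg1 by 1.20 (0.0111), while the drug exporter Abcb1b fell by 1.38 (0.00601), the calcium channel Orai1 by 0.77 (0.00671) and Mcu by 0.62 (0.00963). Of 11 tested enzymes of the same nutrients, 0 were called by genotype with IL-6, and with TGFb the pyrimidine enzyme Cad (-0.98, 0.012) and the polyamine enzyme Odc1 (-0.56, 0.0201) were; with the block these counts were 0 and 3. Of 12 regulators of nutrient genes, Nfe2l2, an oxidative stress factor, was the 1 called in STAT3-deficient cells with IL-6 (-0.65, 0.0215; 3 lower with the block), and 0 were called with TGFb, with or without the block.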

How the data were processed

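RNA from 16 cultures was measured on Affymetrix arrays. The deposited values are linear intensity, whole numbers from 6 to 37243, which the authors made with RMA per the submitters' processing notes; the RMA version is not given in the sources used here. No pseudocount was added before log2 of the deposited intensity was taken. Depth does not apply to arrays, and precision is limited by 2 arrays a group.

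Of 45101 probe sets, 64 are controls, 34945 have 1 gene symbol, 932 several and 9160 none in the platform annotation. The brightest probe set (highest mean log2) stood for each of 18193 genes, and the 13007 genes with log2 6 on at least 2 arrays were tested. All 127 carrier genes matched the gene table by Entrez identifier.

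One limma 3.58.1 fit (R 4.3.3) held the 8 group means over 16 arrays, with 8 residual and 3.27 prior degrees of freedom, and gave 12 comparisons, two-sided, each adjusted by Benjamini-Hochberg over all tested genes. A gene is called at an adjusted p under 0.05. A background is the share of all tested genes called so, also where a count at an unadjusted p stands beside it. The comparison of replicate numbers, with the groups in the fit, was added after the data had been seen. The labels number the replicates 1 and 2 in every group. The pairing comes from the data: deviations of same-numbered arrays correlated above 0.1 in 28 of 28 pairs of groups (0.11 to 0.86, median 0.33), so the fit with the replicate number as a block was run as an alternative.

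The named genes are a panel of activated T-cell carriers, the called genes of each comparison (up to 8 each way), the brightest 5, the 6 most variable, and for 3 comparisons the 5 largest changes each way without overlap. Others, such as those called with the block alone, were named after their values were seen. The genes and lists were chosen with earlier results of these data known. Alternatives were the block, the block with the Actb 5' minus 3' difference, quantile normalization, other filters, log2(value + 16), the mean of all probe sets, array weights, the arrays compared alone, and arrays left out. The fits were tested on simulated data. Promoter windows came from a RefSeq table.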

Additional observations from a re-analysis of the deposited data

Results flagged for a closer look

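The response of Slc41a1 to IL-6 differed between the genotypes in the fit with the replicate block. It was -0.19 in STAT3-deficient and 0.98 in WT cells, a difference of -1.18, with an adjusted p of 0.158 without the block and 0.0393 with it (limma). The level with IL-6 was lower on 4 of 4 STAT3-deficient arrays than on any WT array with IL-6.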

How the results depend on the processing

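With 2 arrays a group, the number of carrier genes called depended on the fit. No named change that was called in the main fit or in the alternative reversed its direction. Among named changes called in neither, 4 took the other sign in an alternative and differed by at least their SE. Smaller changes of sign among uncalled genes were not counted. Adding the replicate number as a block, which pairs the samples, moved the calls to 10 between genotypes with IL-6 alone, 17 over both conditions with IL-6, 1 in the interaction, 5 for IL-6 in WT cells, 9 and 1 for both cytokines against medium in WT and STAT3-deficient cells, and 18 for TGFb, with the directions given above; it changed no other call count by over 1.5 times. The block with the Actb 5' minus 3' difference gave 1 with IL-6 alone, 2 for IL-6 in WT cells, and 8 and 1 for both cytokines in WT and STAT3-deficient cells. The mean of all probe sets gave 0 with IL-6 and TGFb, 1 with IL-6 alone, 0 for IL-6 in WT cells, and 5 and 1 for both cytokines. Array weights gave 2 with IL-6 and TGFb, 2 for IL-6 in WT cells, and 11 and 1 for both cytokines; quantile normalization gave 5 for both cytokines in WT cells. Leaving out the 2 STAT3-deficient arrays in doubt (TGFb replicate 1 and IL-6 with TGFb replicate 1) gave 0 with IL-6 and TGFb, 2 with IL-6 alone, 6 over both, 2 for IL-6 in WT cells and 19 between replicate numbers. With the block as well, a fit chosen after seeing the data, these were 0, 13, 16 and 4, with 11 and 1 for both cytokines. Leaving out 1 array at a time gave 0 to 1 calls between genotypes with IL-6 and TGFb and 0 to 1 with IL-6, 0 to 3 with TGFb, 0 in medium and 0 over both conditions without IL-6, 1 to 7 over both with IL-6, 0 to 2 for the interaction, 0 to 2 for IL-6 in WT and 0 in STAT3-deficient cells, 0 to 2 and 0 for both cytokines in WT and STAT3-deficient cells, and 5 to 14 for TGFb. A group left with 1 array was assumed to vary like the other groups. Fits without an array have fewer samples; the cause of the other shifts was not tested. Deposited intensities carry no detection call, so changes of dim probe sets are bounded by background.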
